A study of Mus musculus with 3 samples.

Results

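The solute carriers that move amino acids and related small molecules across the plasma membrane were followed in the mouse macrophage-like cell line J774A.1 after 6 h in each of 3 media. The first was RPMI with 10% fetal bovine serum. The second was EBSS, a buffered salt solution with glucose that holds no amino acids, and the third was EBSS to which 10 µM of SB202190, which blocks p38 MAP kinases, was added. The series asks which transcripts lie downstream of starvation and of p38, per the labels. The members are all genes whose name in the array files begins with Slc1a, Slc3a, Slc6a, Slc7a, Slc36a, Slc38a or Slc43a and a digit. This gave 56 of the 27573 genes on the array, of which 55 are carriers or their partner chains and 1, Slc7a6os, is a gene named for lying opposite Slc7a6. The Slc1 family holds 7 members, Slc3 2, Slc6 19, Slc7 15 besides Slc7a6os, Slc36 4, Slc38 5 and Slc43 3.

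Amino acid carriers work in 2 main modes. Some use the sodium gradient to pile up amino acids inside the cell, as part of Slc1 and the Slc6 and Slc38 families do. Exchangers, such as Slc1a4, Slc1a5 and most of Slc7, swap one amino acid for another and so depend on the first kind. Several Slc7 proteins reach the surface only when bound to a heavy chain of the Slc3 family. When amino acids run short, the kinase Gcn2 raises translation of the transcription factor Atf4, which binds C/EBP-ATF response elements and is known to raise several carriers. Macrophages also draw on these carriers for arginine, glutamine and the cystine that feeds glutathione.

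Each medium was 1 sample of 1 cell line, read on 3 two-colour arrays in a loop: RPMI in Cy5 against EBSS in Cy3, EBSS in Cy5 against EBSS with SB202190 in Cy3, and EBSS with SB202190 in Cy5 against RPMI in Cy3. Every gene therefore has 6 channel values, 2 per medium. There were no replicate cultures, so no difference has a test or a p-value, and the technical standard error (SE) given with a log2 ratio covers only disagreement between arrays. The sources used here do not say whether the cells in plain EBSS got the solvent too. A ratio compares shares of labelled RNA, and fewer expressing cells and less RNA per cell cannot be told apart. Of 12 macrophage markers 11 were well above background in every medium (Mrc1 was not), against 2 of 14 markers of other cell types (Hba-a1 and S100a8). Cd14 and Fcgr1 had log2 ratios of -1.56 and -1.31 with SB202190 against EBSS.

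A carrier was called measured in a comparison when its brightest probe was well above background in both channels of at least 1 of the 2 media. It was counted as higher or lower when the log2 ratio over the loop reached 1 in size, with at least 0.5 of the same sign both on the array that held the 2 media and over the other 2 arrays. In all, 25 of the 55 carriers were measured in some comparison and 18 were above background in all 6 channels. The other 30 were above background in both channels of no medium, and 24 of them in no channel at all. By medium, 22 carriers were above background in both channels in RPMI, 22 in EBSS and 19 in EBSS with SB202190.

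In EBSS against RPMI, 6 of 24 measured carriers were counted as higher and 0 as lower. The 6 were Slc38a2, Slc6a9, Slc1a4, Slc6a8, Slc3a2 and Slc7a11, which together handle small neutral amino acids, glycine, creatine, cystine and the shared heavy chain. Over all 11874 measured genes, 4.48% met the rule for higher and 2.82% that for lower. The median log2 ratio was 0.20 over the carriers and 0.00 over all genes. With SB202190 against EBSS, 3 of 23 measured carriers were counted as lower (Slc6a8, Slc38a2 and Slc6a9) and 0 as higher, beside 2.93% lower and 0.889% higher among 11692 genes. The median there was -0.18 over the carriers and 0.00 over all genes. In EBSS with SB202190 against RPMI, 2 of 23 carriers were higher (Slc1a4 and Slc3a2) and 0 lower, beside 1.47% higher and 2.43% lower among 11863 genes, with medians of 0.00 and 0.01. The comparisons share their samples, so none of them checks another.

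**Figure D1:**
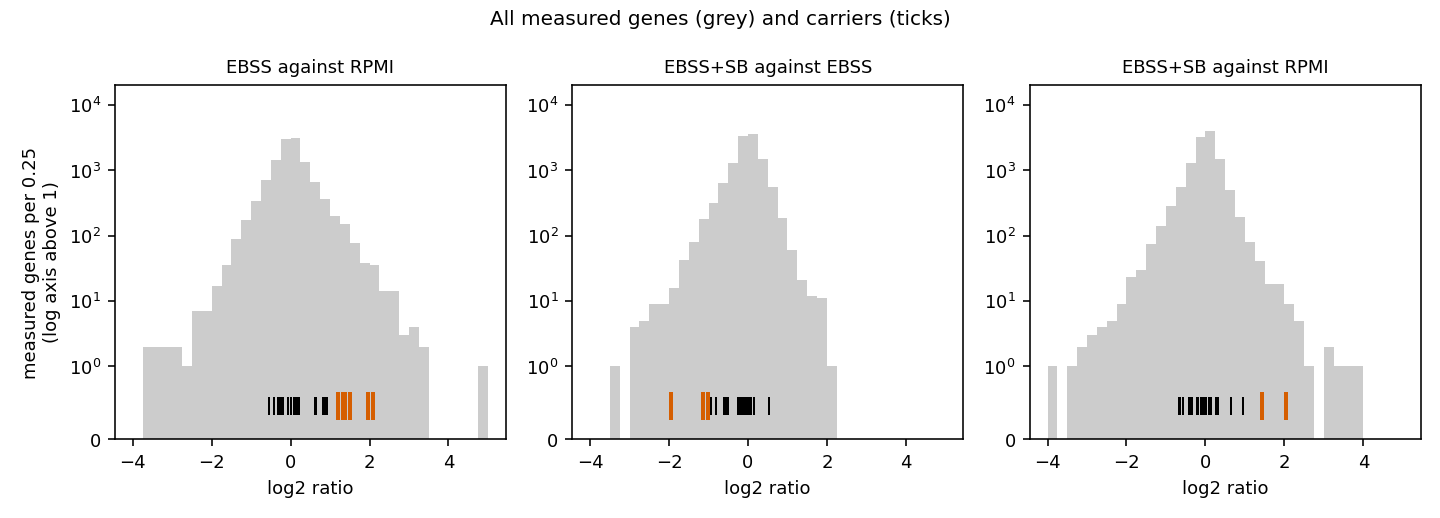
Number of measured genes (vertical axis, logarithmic above 1) by log2 ratio in bins 0.25 wide (horizontal axis) for the 3 comparisons, EBSS+SB standing for EBSS with SB202190; black ticks are carriers and tall orange ticks the counted ones. The 6 counted carriers lie to the right of 1 in EBSS against RPMI, and 3 lie to the left of -1 with SB202190 against EBSS.

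The plot of all genes sets the carriers within the whole distribution: in EBSS against RPMI the ratios reached 4.79 over all genes and 2.08 over the carriers. Of the 24 carriers 16 lay above 0 and 8 below in that comparison.

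Because Atf4 acts through C/EBP-ATF response elements, the promoters of the members were searched for their core, TGATGNAA, on both strands, from 250 bases before to 50 after each start site. RefSeq promoters (build GRCm38.p6) matched 37 of the 55 carriers, and 3 of these held the core: Slc7a11, Slc1a4 and Slc7a7. The core was found in 1219 of all 27025 genes with a listed promoter, or 4.51%. Of the 6 carriers counted as higher in EBSS, 5 had a promoter in the table (Slc6a8 is the one without) and 2 held the core, Slc7a11 and Slc1a4. Slc7a7 held it too and had a negative log2 ratio in EBSS, given below. The stretches around the core are shown 5′ to 3′ with the matching letters in capitals, for Slc7a11 (chr3:50443614-50443723, minus strand), Slc1a4 (chr11:20332710-20332743, minus strand) and Slc7a7 (chr14:54418052-54418111, minus strand).
Slc7a11: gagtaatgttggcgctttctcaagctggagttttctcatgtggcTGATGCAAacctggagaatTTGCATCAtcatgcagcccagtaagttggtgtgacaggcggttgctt
Slc1a4: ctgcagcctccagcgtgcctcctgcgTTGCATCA
Slc7a7: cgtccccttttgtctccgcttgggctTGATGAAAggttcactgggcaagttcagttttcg
In Slc7a11 the core occurs once on each strand, starting 66 and 47 bases before the start site, so that the 2 matches face each other. In Slc1a4 it starts 4 bases before the start site and reads on the opposite strand. In Slc7a7 the match shown starts 141 bases before 1 of its listed start sites. A second match, TGATGCAA, starts 1 base before that same start site and 243 bases before another. These are letter matches in a fixed window, and binding was not measured here.

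The sodium-coupled carriers of glutamate and of small neutral amino acids (Slc1) had 3 of 7 members measured, with positive log2 ratios in EBSS against RPMI for Slc1a4, Slc1a5 and Slc1a1. Slc1a4, an exchanger of alanine, serine and cysteine, is read here by a probe at chr11:20202533-20202592 of build mm8, the build of all probe positions given. Its normalized log2 intensities were 9.22 (Cy5) and 9.16 (Cy3) in RPMI, 10.71 and 10.55 in EBSS, and 11.37 and 11.08 in EBSS with SB202190. The 3 media did not overlap, and the inhibitor-treated cells were the highest. EBSS against RPMI gave a log2 ratio of 1.5 (SE 0.11), a 2.83-fold difference, and 2.03 for EBSS with SB202190 against RPMI, a 4.1-fold difference. Between the inhibitor and EBSS alone it was 0.53, with 0.37 on the array that held both and 0.87 over the other 2 arrays. When arrays were median-centred instead, that value became -0.04, which was 0.41 above the median of all genes. A second probe of the gene gave 1.22, 0.14 and 1.36 for EBSS against RPMI, SB202190 against EBSS and SB202190 against RPMI. The scanner software's own ratio for the first probe was 2.45 for EBSS against RPMI.

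Slc1a5, the main exchanger of glutamine, stood just under the size needed. In normalized log2 intensity it read 14.76 and 14.60 in RPMI, 15.41 and 15.65 in EBSS and 15.25 and 15.20 with the inhibitor. All channels of both EBSS media were above both RPMI channels. This amounted to a log2 ratio of 0.88 (SE 0.18) in EBSS against RPMI, -0.22 with SB202190 against EBSS and 0.66 with SB202190 against RPMI.

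Slc1a1, a glutamate and cysteine carrier, was above background in both channels of EBSS only. Its probe was dim, with processed intensities of the scanner software of 52.6 and 15.0 in RPMI, 388 and 330 in EBSS, and 39.1 and 12.5 in EBSS with SB202190. Both EBSS channels were well clear of the other 4. The log2 ratio was 0.61 (SE 0.09) for EBSS against RPMI and -0.55 for SB202190 against EBSS, while the scanner software's ratios of the same spots were 3.88 and -3.73. The 2 routes around the loop disagreed for these scanner software ratios. They gave 2.65 and -4.96 on the array that held both media, and 6.35 and -1.27 over the other 2 arrays. The second probe had the same signs, 0.10 and -0.10, or 2.0 and -2.16 from the scanner software. A difference in these directions was seen by both probes and both kinds of processing, but its size rests on how background is treated. Slc1a2, Slc1a3, Slc1a6 and Slc1a7 were not measured.

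Both heavy chains of the Slc3 family were measured in at least 1 comparison. Slc3a2, the chain known as CD98 that carries Slc7a5, Slc7a7, Slc7a8 and Slc7a11 to the surface, had normalized log2 intensities of 14.70 and 14.41 in RPMI, 15.80 and 16.07 in EBSS and 15.81 and 15.90 in EBSS with SB202190 (chr19:8774744-8774803). The channels of the 2 EBSS media overlapped with each other and lay above RPMI. In log2 ratio this was 1.34 (SE 0.18) for EBSS against RPMI, a 2.54-fold difference, 1.43 for SB202190 against RPMI, and 0.08 for SB202190 against EBSS, less than its SE. Relative to the median of all genes, the last value became -0.40 when arrays were median-centred instead, and the scanner software gave -0.02, so its sign is not settled. Against RPMI the inhibitor was no longer counted as higher with median centring, although the ratio there was 1.94, as the rule also asks for both paths. The second probe also gave 1.34 in EBSS against RPMI, and -0.30 with SB202190 against EBSS.

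Slc3a1, the partner of Slc7a9, was above background in both channels with the inhibitor only. Its processed intensities were 19.9 and 10.2 in RPMI, 59.8 and 46.9 in EBSS and 114 and 102 in EBSS with SB202190. The order of the media was the same in both dyes, but neither RPMI channel was well above background. On the normalized scale its mean signal in EBSS with SB202190 was 1.23-fold that in RPMI, with no allowance for error. The measured log2 ratio was 0.32 in that comparison and 2.98 from the scanner software.

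**Figure D2:**
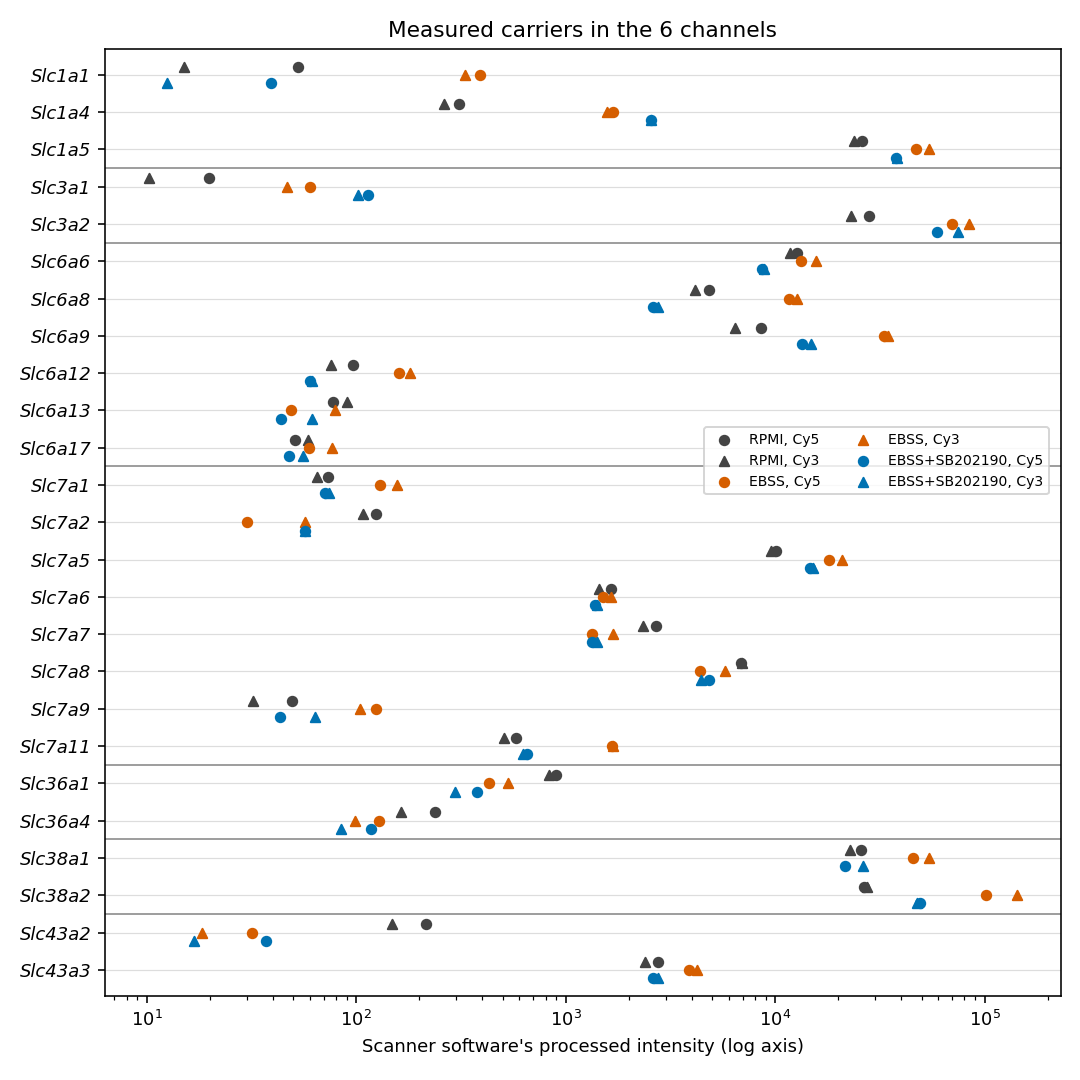
Scanner software's processed intensity (horizontal axis, logarithmic) of the representative probe of each of the 25 measured carriers, in RPMI (grey), EBSS (orange) and EBSS with SB202190 (blue), with circles for Cy5 and triangles for Cy3; lines part the families. Slc38a2, Slc6a9 and Slc6a8 have both EBSS channels to the right of the other 4, Slc1a4 and Slc3a2 have both EBSS media to the right of RPMI, and Slc7a7, Slc36a1 and Slc43a2 have RPMI to the right; probes of different genes are not comparable in level.

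The plot of the 6 channels shows the pattern behind the ratios. The 2 dyes of a medium lay visibly apart for some dim probes, such as that of Slc1a1 in RPMI (52.6 and 15.0), and close together for others, such as that of Slc6a12 with the inhibitor (60.2 and 61.3).

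In the Slc6 family, which is better known for neurotransmitter carriers, 6 of 19 members were measured, 2 were counted as higher in EBSS and the same 2 as lower with SB202190 against EBSS. Slc6a9 takes up glycine, 1 of the 3 amino acids of glutathione. It had normalized log2 intensities of 12.76 and 12.52 in RPMI, 14.51 and 14.71 in EBSS, and 13.49 and 13.46 in EBSS with SB202190 (chr4:117367162-117367221). EBSS was the highest, RPMI the lowest and the inhibitor between them, with no overlap. The log2 ratios were 1.97 (SE 0.18, 3.92-fold) for EBSS against RPMI, -1.02 for SB202190 against EBSS and 0.95 for SB202190 against RPMI. With SB202190 against EBSS the array that held both gave -1.05 and the other 2 arrays -0.97.

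Slc6a8, the creatine carrier, had the largest difference between the inhibitor and EBSS alone after normexp and loess. By the scanner software it was -2.07, and the dim Slc1a1 exceeded it at -3.73, although the 2 routes for Slc1a1 gave -4.96 and -1.27. Slc6a8 read 12.07 and 12.00 in RPMI, 13.45 and 13.44 in EBSS and 11.42 and 11.51 in EBSS with SB202190, in normalized log2 intensity (chrX:69934979-69935038). With the inhibitor it lay below RPMI as well as below EBSS, in every channel. The log2 ratio was 1.37 (SE 0.12, 2.58-fold) for EBSS against RPMI and -1.95 for SB202190 against EBSS, a value 3.86-fold lower. Against RPMI it was -0.58 with SB202190. Both routes around the loop gave -1.95 for the inhibitor, and 1.37 and 1.36 for EBSS against RPMI. This gene and Slc6a9 have 1 probe each, so no second probe checks them.

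Slc6a6, the taurine carrier, had a log2 ratio of 0.22 (SE 0.13) in EBSS against RPMI, and 0.39 from a second probe. With SB202190 it was -0.61 against EBSS and -0.39 against RPMI, where the second probe gave -0.50 and -0.12. Slc6a12 (betaine and GABA), Slc6a13 (GABA and taurine) and Slc6a17 (a vesicle carrier of neutral amino acids) were dim, with log2 ratios between -0.15 and 0.15 in the 3 comparisons. Slc6a12 had processed intensities of 96.2 and 75.6 in RPMI, 159 and 180 in EBSS and 60.2 and 61.3 with the inhibitor, and the scanner software's ratios were 0.95 and -1.33 for EBSS against RPMI and SB202190 against EBSS. All 6 measured members had a negative log2 ratio with SB202190 against EBSS, but Slc6a12, Slc6a13 and Slc6a17 lay above the median of all genes with median centring. The 13 other members of the family were not measured.

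Of the Slc7 carriers 8 of 15 were measured in EBSS against RPMI, and 1 was counted. Slc7a11, the light chain of the cystine-glutamate exchanger whose promoter stretch is given above, had normalized log2 intensities of 9.74 and 9.68 in RPMI, 11.02 and 10.87 in EBSS, and 10.01 and 10.00 in EBSS with SB202190 (chr3:50461973-50462032). The EBSS channels stood apart, and the inhibitor channels lay slightly above RPMI. In log2 ratio it stood at 1.20 (SE 0.11, 2.3-fold) for EBSS against RPMI, -0.95 for SB202190 against EBSS and 0.26 for SB202190 against RPMI. With the inhibitor against EBSS it was -1.02 on the array that held both and -0.81 over the other 2. Of its 3 other probes, 2 were measured and gave 0.75 and 0.46 in EBSS against RPMI, and the median over its probes was under 1, so Slc7a11 is not counted when all probes are used.

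Slc7a5, the large neutral amino acid exchanger that imports leucine, had normalized log2 intensities of 13.09 and 13.18 in RPMI, 13.68 and 14.11 in EBSS, and 13.72 and 13.54 in EBSS with SB202190. All 4 starved channels lay above both RPMI channels. Its log2 ratio was 0.91 (SE 0.18) for EBSS against RPMI, from 1.02 on the array with both media and 0.68 over the other 2. It was -0.26 with SB202190 against EBSS and 0.65 with SB202190 against RPMI. Like Slc1a5, it fell short of the size needed.

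The light chains Slc7a7 and Slc7a8 had negative log2 ratios. Slc7a7, which exports arginine and lysine in exchange for neutral amino acids, read 11.41 and 11.38 in RPMI, 10.84 and 10.89 in EBSS and 10.71 and 10.74 in EBSS with SB202190. RPMI was the highest in both dyes. The log2 ratio was -0.54 (SE 0.11) in EBSS against RPMI, -0.65 with SB202190 against RPMI and -0.12 with SB202190 against EBSS, where the scanner software gave 0.01. Slc7a8, another neutral amino acid exchanger, had -0.28, and with median centring it lay 0.07 above the median of all genes. Slc7a6, a close relative of Slc7a7, had 0.12, and its second measured probe -0.22. The opposite-strand gene Slc7a6os, counted apart, had -0.09, 0.31 with SB202190 against EBSS and 0.22 with SB202190 against RPMI.

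The arginine carriers Slc7a1 and Slc7a2 and the cystine and dibasic amino acid carrier Slc7a9 were dim. For Slc7a1 the processed intensities were 73.5 and 65.0 in RPMI, 130 and 156 in EBSS and 70.9 and 73.9 in EBSS with SB202190. EBSS was the highest in both dyes, with a log2 ratio of 0.17 against RPMI and 1.03 from the scanner software. Slc7a2 read 124 and 108 in RPMI, 30.1 and 56.9 in EBSS and 56.9 and 57.1 with the inhibitor, and was not well above background in EBSS. Its log2 ratio was -0.19 for EBSS against RPMI, or 1.14-fold higher in RPMI, and the scanner software gave -1.37. Slc7a9 had processed intensities of 49.5 and 32.1 in RPMI and 124 and 104 in EBSS, a log2 ratio of 0.09 and a scanner software ratio of 1.18. The 2 arginine carriers thus had opposite signs in EBSS against RPMI under both kinds of processing, while Slc7a1 lay 0.41 below the median of all genes with median centring. Slc7a3, Slc7a4, Slc7a10 and Slc7a12 to Slc7a15 were not measured.

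The proton-coupled Slc36 carriers, of which Slc36a1 sits on lysosomes, had 2 of 4 members measured and none counted. Slc36a1 had normalized log2 intensities of 9.97 and 10.05 in RPMI, 9.45 and 9.60 in EBSS and 9.32 and 9.29 in EBSS with SB202190. RPMI was the highest and the inhibitor the lowest, with no overlap. The log2 ratios were -0.43 (SE 0.11) for EBSS against RPMI, -0.23 for SB202190 against EBSS and -0.66 for SB202190 against RPMI, where the scanner software gave -1.20. Slc36a4 was dimmer, with processed intensities of 238 and 164 in RPMI, 128 and 98.5 in EBSS and 117 and 84.1 with the inhibitor, and a log2 ratio of -0.25 in EBSS against RPMI. Median centring made both EBSS against RPMI ratios positive, 0.20 and 0.03, while it moved the median of all genes to 0.81, so that both lay below that median, at -0.61 and -0.79. Slc36a2 and Slc36a3 were not measured.

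The sodium-coupled system A carriers Slc38a1 and Slc38a2, which take up glutamine and alanine, were the 2 measured members of 5 in their family. After normexp and loess the brightest probe of Slc38a2 had the largest log2 ratio of the measured carriers in EBSS against RPMI, while by the scanner software Slc1a1 (3.88) and Slc1a4 (2.45) exceeded it (2.26), and the median over its probes was 1.01. Its normalized log2 intensities were 14.41 and 14.40 in RPMI, 16.02 and 16.56 in EBSS, and 15.27 and 14.95 in EBSS with SB202190 (chr15:96516094-96516153). For this probe the media did not overlap, and the inhibitor lay between the others. The ratio was 2.08 (SE 0.18, 4.22-fold) for EBSS against RPMI, -1.14 for SB202190 against EBSS (2.2-fold lower) and 0.94 for SB202190 against RPMI.

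The 4 probes of Slc38a2 did not give 1 value. The probe above and a second one of high signal (chr15:96517739) gave 2.08 and 1.29 in EBSS against RPMI, another (chr15:96526116) 0.74, and the dimmest (chr15:96525025) -0.10. With SB202190 against EBSS the same 4 gave -1.14, -0.98, -0.69 and -0.03. With SB202190 against RPMI they gave 0.94, 0.31, 0.06 and -0.13, so a level well above RPMI under the inhibitor rests on the brightest probe. The order of the ratios followed the brightness of the probes in every comparison. Where each probe lies in the transcript was not examined here.

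Slc38a1 had 6 probes, and all had positive log2 ratios in EBSS against RPMI, from 0.14 to 0.83. Its brightest probe read 14.32 and 14.14 in RPMI, 15.13 and 15.22 in EBSS and 14.10 and 14.37 in EBSS with SB202190, in normalized log2 intensity. RPMI and the inhibitor overlapped, and EBSS lay above both. This gave 0.83 (SE 0.18) in EBSS against RPMI, -0.82 with SB202190 against EBSS and 0.02 with SB202190 against RPMI. The 6 probes of Slc38a1 therefore had 1 direction, while no probe reached a log2 ratio of 1. Slc38a3, Slc38a4 and Slc38a5 were not measured.

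**Figure D3:**
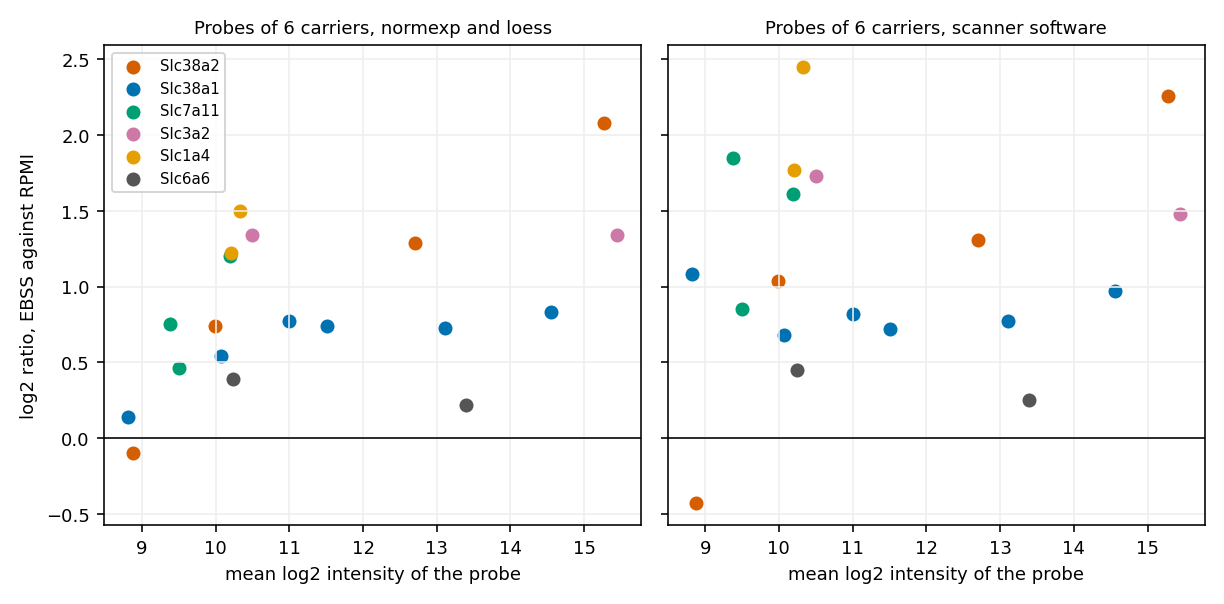
Log2 ratio of EBSS against RPMI (vertical axis) of each measured probe by its mean normalized log2 intensity (horizontal axis), for 6 carriers with several measured probes, after normexp and loess (left) and from the scanner software (right). The 4 probes of Slc38a2 spread from -0.10 to 2.08 on the left, while those of Slc38a1 lie between 0.14 and 0.83 on the left and between 0.68 and 1.08 on the right.

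In the plot of probes, the dimmest probe of Slc38a1 lay at 0.14 after normexp and loess and at 1.08 from the scanner software, and the dimmest of Slc38a2 stayed below 0 in both panels.

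In the Slc43 family 2 of 3 members were measured and none was counted. Slc43a3, which is known as a carrier of purine bases, read 11.34 and 11.33 in RPMI, 12.02 and 11.96 in EBSS and 11.49 and 11.49 in EBSS with SB202190, in normalized log2 intensity. EBSS was the highest in both dyes. The log2 ratio was 0.64 (SE 0.11) for EBSS against RPMI, -0.51 for SB202190 against EBSS and 0.14 for SB202190 against RPMI.

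Slc43a2, a carrier of large neutral amino acids, had processed intensities of 216 and 148 in RPMI, 31.6 and 18.4 in EBSS, and 37.2 and 16.7 in EBSS with SB202190. It was well above background in both RPMI channels and in neither EBSS channel. In RPMI it was at least 1.2-fold higher than in EBSS, with a measured log2 ratio of -0.33 and a scanner software ratio of -2.73. The bound, on the normalized scale, takes for EBSS the higher of the gene's own signal and the lowest signal well above background. It makes no allowance for error. Its second probe gave -0.18 and -1.59. Slc43a1 was not measured.

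**Figure D4:**
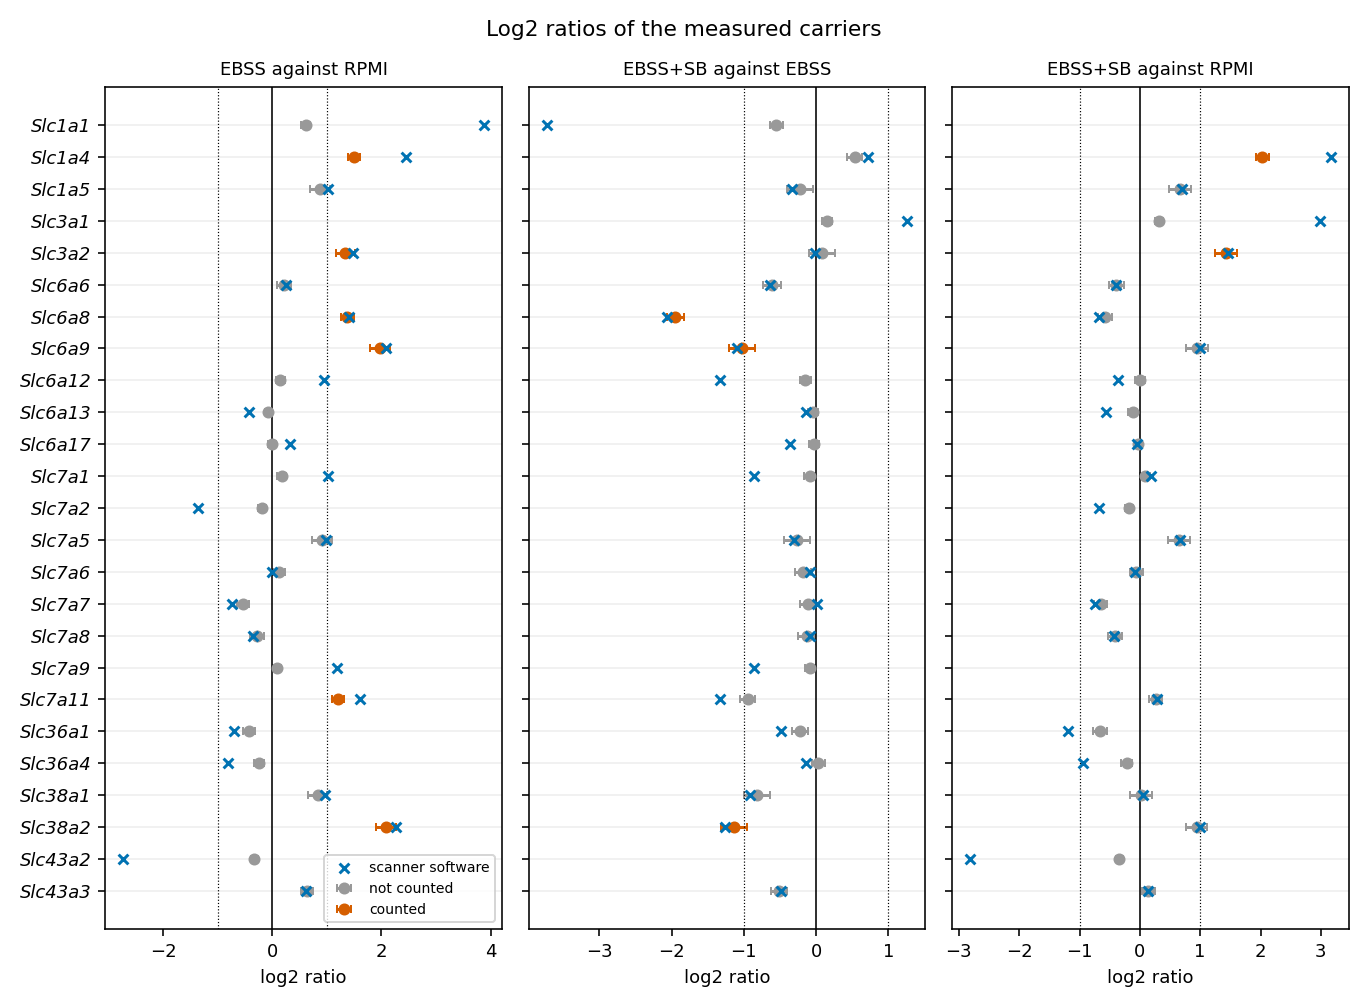
Log2 ratio (horizontal axis) of each measured carrier in the 3 comparisons, with the technical standard error as bars; orange points are counted, grey points are not, blue crosses are the scanner software's ratios, and dotted lines mark -1 and 1. A row without a point was not measured in that comparison; points and crosses lie close together for bright probes and far apart for dim ones such as Slc1a1 and Slc43a2.

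The plot of ratios separates the carriers by signal. In the 15 measured carriers whose highest processed intensity was at least 500, the 2 kinds of ratio in EBSS against RPMI differed by a median of 0.14, and by 0.95 at most (Slc1a4). In the 10 below that intensity, of which 9 were measured in that comparison, they differed by a median of 0.86 and by up to 3.27 (Slc1a1). Between the 2 kinds of ratio 1 measured carrier changed sign in EBSS against RPMI, Slc6a17 (0.998-fold, against a scanner software log2 ratio of 0.32), and 3 did with SB202190 against EBSS (Slc3a2, Slc7a7 and Slc36a4). The ratios of dim carriers after normexp and loess are thus small numbers whose size depends on the background step, and absence from the counts does not show that they did not differ.

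Among carriers with family names in RefSeq but an older name in the files, which the rule leaves out, Slc38a7 had log2 ratios of 0.72, 0.11 and 0.83 for EBSS against RPMI, SB202190 against EBSS and SB202190 against RPMI. Slc38a9, the arginine-sensing carrier of the lysosome, had 0.11, 0.16 and 0.26 there, and Slc38a10 had -0.23, 0.32 and 0.09.

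Other genes of amino acid supply were taken from lists chosen with earlier results known. Of 19 measured transcription factors and targets of the amino acid response, 13 (68.4%) were counted as higher in EBSS against RPMI and 0 as lower. Over all genes 4.48% were higher and 2.82% lower. The median log2 ratio of the 19 was 1.76. Ddit3 (3.32), Trib3 (3.08) and Ppp1r15a (2.78) had the largest ratios, Atf4 itself had 1.64, and Nupr1, Sesn2, Atf3, Atf5, Cebpg, Cth, Ddit4, Chac1 and Mthfd2 completed the 13. Asns, the asparagine synthetase and a well-known Atf4 target, had 0.96. With SB202190 against EBSS, 6 were lower (Atf5, Chac1, Nupr1, Ddit4, Cebpg and Cth) and 0 higher, with a median of -0.83. That was 31.6% lower, beside 2.93% of all genes. Against RPMI, 6 were higher with the inhibitor (Ddit3, Trib3, Ppp1r15a, Sesn2, Nupr1 and Atf3) and 1 lower (Cebpb). These were 31.6% and 5.26%, beside 1.47% higher and 2.43% lower among all genes.

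Of 23 measured genes of amino acid sensing at the lysosome and mTORC1, 7 were higher in EBSS against RPMI and 1 lower. That was 30.4% and 4.35%, beside 4.48% and 2.82% of all genes. The 7 were Fnip1 (2.67), Flcn (2.60), Sesn2 (2.60), Fnip2 (2.41), Rragc (1.73), Lamtor3 (1.62) and Rheb (1.03), and Sesn1 had -1.28, with -0.48 and -0.15 from its other probes. Other measured probes gave 0.22 to 2.56 for Fnip1, 1.92 for Sesn2 and 1.81 for Rragc. With SB202190 against EBSS 3 were lower (Lamtor3, Rragc and Flcn), and against RPMI 5 were higher (Fnip1, Sesn2, Flcn, Fnip2 and Mlst8). These were 13% and 21.7% of the 23, beside 2.93% and 1.47% of all genes.

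Carriers of other families had 3 of 10 measured members higher in EBSS, beside 4.48% of all genes. They were Ctns, the lysosomal cystine exporter (1.83), Slc15a4, a lysosomal histidine and peptide carrier (1.32), and Slc16a10, which moves aromatic amino acids (1.17). With SB202190 against EBSS, Slc16a10 was the 1 counted, at -1.24, and Ctns was the 1 counted against RPMI, at 1.34. Each was 1 of 10, beside 2.93% of all genes lower and 1.47% higher. Another measured probe of Slc16a10 gave 0.57 in EBSS against RPMI and -0.57 with SB202190 against EBSS. Of 16 measured enzymes of arginine, glutamine, glycine and glutathione use, Got1 (1.80) and Gpt2 (1.32) were higher in EBSS. That was 12.5%, beside 4.48% of all genes. Both transaminases were also higher with the inhibitor against RPMI, at 1.23 and 1.15, where 1.47% of all genes were higher. Gclc, which makes the first bond of glutathione, had -0.83 in EBSS.

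Of 8 measured regulators of carrier traffic, Txnip, an arrestin-like protein, was higher in EBSS at 1.95 and stayed at 1.97 with the inhibitor against RPMI. It was the 1 counted as higher in each, beside 4.48% and 1.47% of all genes. Its relatives were dim, Arrdc3 at -0.70 (-4.09 from the scanner software) and Arrdc4 at 0.59 (3.74). Sgk1, a kinase that holds carriers at the surface, was lower with the inhibitor, at -1.26 against EBSS and -1.87 against RPMI. Of all genes 2.93% and 2.43% were lower in these comparisons.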

How the data were processed

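The deposited scanner files of Agilent Feature Extraction 9.5.3.1 give spot and local background intensities, processed intensities (background-subtracted and dye-normalized) and a log10 ratio of Cy5 over Cy3, per the file headers. Marks of other kinds (well above background, outlier, control) were deposited with them. The authors' series table holds log2 ratios of the same processed intensities, uncentred, with medians of -0.0854, -0.0766 and -0.166. Probe positions are on mm8, per the file headers.

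Here, intensities were corrected with normexp (offset 50) and normalized by loess in limma 3.58.1 (R 4.3.3). Each array had 45018 spots, of which 1639 controls and 136 to 178 outliers were dropped; none was saturated, and 40.1% to 49.9% of spots per channel were well above background. Of 41174 probes 49 were left out, none of them a member's. Symbols came from RefSeq by accession (24350 probes), symbol (6290) or synonym (2422); 8063 kept the deposited name, and the membership rule used the deposited names. The brightest probe stood for a gene, and 26 members had several. Loop ratios were least-squares estimates over the 3 arrays, which weigh the direct array double the indirect path and cancel a probe's dye effect. The SE is a robust SD of the loop sum in 30 intensity bins, scaled (median 0.107 over measured members). The steps were tested on simulated data in Python 3.11.15, numpy 2.4.6 and pandas 2.3.3; figures used matplotlib 3.10.9. The number of arrays limits the precision.

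Members, gene lists and the motif were chosen with earlier results of these data known. All counted and measured members are named, and of each further list the counted genes, apart from an item that is not reported here. The 11 alternatives are in the closing section.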

Additional observations from a re-analysis of the deposited data

How the results depend on the processing

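Median centring in place of loess moved the median log2 ratio of all genes to 0.81, -0.45 and 0.34 in EBSS against RPMI, SB202190 against EBSS and SB202190 against RPMI. In that order of comparisons, it gave carrier medians of 0.98, -0.81 and 0.17, with 12 carriers higher in EBSS and 1 higher with the inhibitor against RPMI. In the last comparison 152 of all 11863 genes were higher and 90 lower with median centring. Over all genes, higher calls were 99.5%, 2.29% and 62.8% of calls with median centring (4252 against 23 in EBSS against RPMI), 46.8%, 50.3% and 38% from the ratios of the scanner software, and 61.4%, 23.3% and 37.7% with loess. The scanner software's ratios and the authors' series table, which hold the same values, gave 10 carriers higher and 2 lower with a median of 0.96, then 1 higher and 6 lower with a median of -0.49, and 3 higher and 2 lower against RPMI. Without background correction the medians were 0.36 and -0.31, with 5 lower with the inhibitor against EBSS, as with equal spread between arrays (5). Of all 11692 genes measured there, 488 and 619 were lower under these 2 settings. With no filter on dim probes the medians were 0.01 and -0.02, and over carriers above background in all 6 channels the first was 0.74. A least size of 0.5 gave 11 higher and 1 lower, 1 higher and 8 lower, and 6 higher and 3 lower. Over all genes that size gave 1564 higher and 1387 lower of 11874, then 849 and 1293 of 11692, and 864 and 1115 of 11863. One path around the loop alone gave 6 to 7 carriers higher in EBSS, 2 to 4 lower with the inhibitor against EBSS and 2 to 3 higher with it against RPMI. Over all genes it gave 533 to 588, 340 to 402 and 177 to 205 in the same order. The cause of these differences was not tested. The 6 carriers higher in EBSS were counted under all these settings except the median over all probes, which lost Slc7a11 there and Slc38a2 with the inhibitor against EBSS. The path over the other 2 arrays alone lost Slc6a9 with the inhibitor against EBSS, at -0.97 beside -1.02, and median centring lost Slc3a2 with it against RPMI, at 1.94 beside 1.43. No counted ratio changed sign. Signal near background limits what can be said of 10 measured carriers, and no setting replaces replicate cultures.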
